A study of Mus musculus with 6 samples.

Results

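The genes that charge transfer RNAs with amino acids and the genes of the integrated stress response were examined in RNA-seq libraries of mouse CD4+ T cells. Members were chosen by a rule on gene names. It took every gene named as an aminoacyl-tRNA synthetase (a single-letter amino acid code followed by ars, or Eprs) and 15 named stress response genes. This gave 52 of the 21362 genes in the table, of which 37 encode synthetases. Of these, 20 encode cytosolic enzymes or their subunits and 17 mitochondrial ones.

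By its design note, the series set sorafenib-treated regulatory T cells beside cells without the drug, a kinase inhibitor used against liver and kidney cancer. All 6 libraries are labelled CD4+ T cell, carry a running number only and have no stated treatment, mouse strain, age or culture. So the labels do not say which cells received the drug, each library is reported on its own, and no effect of sorafenib was estimated. The names library 1 to library 6 follow the running numbers, as do values given in a row. Whether they came from separate mice or cultures is not stated.

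Aminoacyl-tRNA synthetases join each amino acid to its transfer RNA, the step at which the genetic code is read. Most cells carry 1 set of enzymes for the cytosol and another for mitochondria, both encoded in the nucleus. When amino acids run short or misfolded proteins build up, stress kinases phosphorylate the initiation factor eIF2. Translation then slows in general, while the transcription factor ATF4 is made in larger amounts. ATF4 is known to switch on genes of amino acid synthesis and transport, many synthetase genes, and further factors such as CHOP, encoded by Ddit3. Activated T cells depend on serine, glycine and one-carbon metabolism for proliferation. ATF4 itself is controlled largely through the translation of its messenger, which RNA-seq does not measure.

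Library totals ran from 32435799 to 36316162 reads. Levels are given as CPM, read counts scaled to a common total with an adjustment for composition. Levels of different genes are compared only as FPKM, which also divides by gene length. A gene’s range is the fold between its highest and its lowest library, taken on the log2 scale with a prior count of 2. Exact 95% intervals cover counting error only. Over all genes, the chi-square per gene between 2 libraries was 3.98 to 7.06 within libraries 1, 2 and 3 and within libraries 4, 5 and 6, and 53.1 to 64.9 for each pair across them, so the libraries stood apart in these 2 sets. The labels do not say what parts them, and its share in the values below was not tested.

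Some T cell markers, Cd4, Cd28, Cd3d, Foxp3 and Il2ra among them, also had libraries 1, 2 and 3 on one side and libraries 4, 5 and 6 on the other. Cd4 stood at 436, 426, 412, 479.7, 475 and 482 CPM, and Cd28, a costimulatory receptor gene, ran the other way, at 848, 786, 783, 524, 510.2 and 507 CPM. The CD3 chain gene Cd3d lay between 206 (library 4) and 248 CPM (library 1), and Cd3e lay between 200.3 (library 5) and 218 CPM (library 6). Of 2 killer T cell genes, Cd8a stayed at or below 0.661 CPM and Cd8b1 lay between 8.15 (library 3) and 9.57 CPM (library 4). Foxp3, the defining factor of regulatory T cells, stood at 7.37, 7.66, 7.86, 11.9, 13.4 and 11.2 CPM. Il2ra, the interleukin 2 receptor gene that regulatory and activated T cells both express, ran the other way, at 2301, 2201, 2178, 1556, 1613 and 1778 CPM, and Ikzf2 lay between 23.4 (library 6) and 26.5 CPM (library 5). Summed markers lay between 2.32 and 4.38 CPM for 4 B cell genes, between 0.506 and 0.752 CPM for 5 myeloid genes, and at or below 0.287 CPM for 3 erythroid and 0.105 CPM for 2 natural killer genes. Of 4 endothelial and stromal genes, which summed to between 28.9 and 44.3 CPM, Pecam1 made up most. In bulk RNA, fewer cells of a kind and less RNA per cell cannot be told apart.

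All 52 members passed the minimum mean of 1 CPM, and the scarcest, Ears2, averaged 5.49 CPM. Of the 52, 8 reached a range of 1.5-fold and 1 a range of 2-fold. Over all 11516 genes averaging 1 CPM or more, 27.6% ranged 1.5-fold and 10.5% ranged 2-fold. Since the members are well expressed, the 9605 genes averaging 5 CPM or more are the closer measure, and of these 17.3% ranged 1.5-fold and 4.69% ranged 2-fold. The members' share of 15.4% at 1.5-fold lies near that background. The median member ranged 1.29-fold, the median gene averaging 5 CPM or more 1.25-fold and the median of all 11516 genes 1.29-fold. Intervals of the highest and lowest library did not overlap for 47 members, beside 85.0% of all 11516 genes. No such share is given for genes averaging 5 CPM or more. With plain total counts the intervals stood apart for all 52 members, and no share of all genes is given for that scaling. When each gene’s libraries were ordered by level, the widest gap between neighbours parted libraries 1, 2 and 3 from libraries 4, 5 and 6 in 23 members, or 44.2%, beside 34.8% of all genes.

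**Figure D1:**
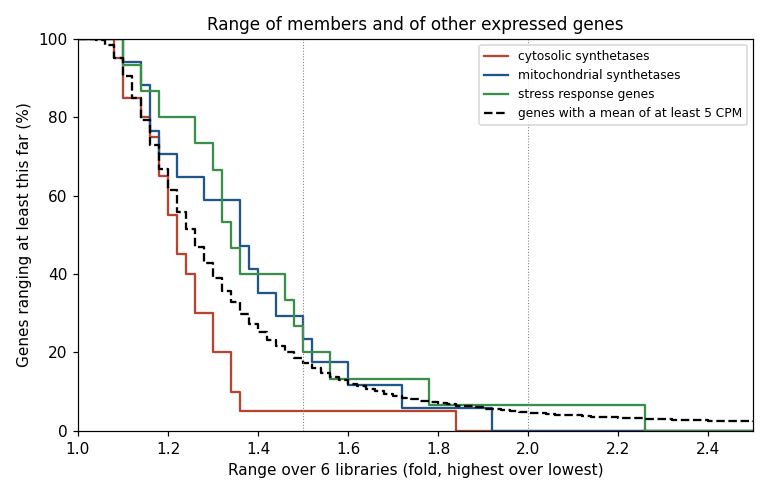
Share of genes, in percent, that ranged at least as far over the 6 libraries as the fold on the horizontal axis. Solid lines show the 20 cytosolic synthetases, the 17 mitochondrial synthetases and the 15 stress response genes, the dashed line the 9605 genes averaging 5 CPM or more, and dotted lines mark 1.5-fold and 2-fold. At 1.5-fold the lines stand at 5%, 23.5%, 20% and 17.3%.

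The cytosolic synthetases were abundant, and their median range lay near that of other well expressed genes. Their median FPKM over the libraries lay between 8.43, for Farsb, and 152, for Sars. Sars, which charges serine, stood at 157, 158, 155, 147, 149.6 and 144 FPKM, and Nars, which charges asparagine, ranged from 80.2 to 107 FPKM. Together the 20 genes took between 0.317% of reads in library 1 and 0.373% in library 6, without the adjustment for composition. With that adjustment they summed to between 3312 CPM in library 1 and 3609 CPM in library 6. The median of their ranges was 1.22-fold, beside 1.25-fold for genes averaging 5 CPM or more. Only 1 of the 20 ranged 1.5-fold or more, or 5%, beside 27.6% of all genes and 17.3% of those averaging 5 CPM or more.

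That gene was Wars1, which charges tryptophan and is known in human cells as a target of interferon gamma. Wars1 stood at 32.1, 31.8, 39.01, 58.1, 55.4 and 56.3 CPM, a 1.83-fold range. Its 3 highest values were in libraries 4, 5 and 6, with an interval in library 4 of 55.7 to 60.5 CPM against one in library 2 of 29.9 to 33.7 CPM. In the same libraries Sars ran the other way, with 608, 609, 592, 523, 531 and 518 CPM. The ratio of Wars1 to Sars reads, a pair chosen after the values were seen and which no scaling of the libraries can alter, was 0.0527, 0.0522, 0.0659, 0.111, 0.104 and 0.109.

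The other cytosolic synthetases ranged between 1.07-fold, for the arginine enzyme gene Rars, and 1.35-fold, for Farsb, a subunit of the phenylalanine enzyme. Lars, the leucine enzyme gene, was lowest in library 1 and highest in library 6, with 82.0, 85.2, 83.8, 107, 104 and 109.7 CPM. Eprs, whose protein charges both glutamate and proline, stood at 338, 356, 346, 401, 419.6 and 406 CPM, lowest in library 1 and highest in library 5. Cars, the cysteine enzyme gene, had its 3 highest values in libraries 1, 2 and 3, as Sars did, with 147, 148, 151, 117, 119 and 123 CPM. Aars, the alanine enzyme gene, ranged 1.09-fold and was highest in library 2, but it was highest in library 6 with plain total counts, so its order rests on the scaling.

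The 2 subunit genes of the phenylalanine enzyme were both highest in library 5, Farsa with 39.1, 34.6, 32.2, 37.9, 42.6 and 40.9 CPM and Farsb with 45.6, 49.98, 51.2, 54.98, 61.6 and 60.5 CPM. Tars, the threonine enzyme gene, stood at 87.3, 84.5, 94.4, 102, 101 and 109 CPM, highest in library 6. Gars, the glycine enzyme gene, stood at 198, 208, 205, 225, 226 and 233 CPM, with its 3 highest values in libraries 4, 5 and 6. So did Kars and Nars, the lysine and asparagine enzyme genes, at 137, 133, 140.2, 157, 149 and 166 CPM and at 218, 224, 233, 267, 259 and 262 CPM. The aspartate enzyme gene Dars lay between 185 (library 1) and 219.9 CPM (library 6), the tyrosine enzyme gene Yars between 102 (library 1) and 125 CPM (library 5) and the valine enzyme gene Vars between 207 (library 1) and 242 CPM (library 6).

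In mammals, 8 of these synthetase genes encode enzymes of the multisynthetase complex, a large assembly held together by scaffold proteins. They are Eprs, Iars, Lars, Qars, Mars1, Kars, Rars and Dars. Of the 8, 0 ranged 1.5-fold, beside 17.3% of genes averaging 5 CPM or more. Their median FPKM lay between 18.6, for Mars1, and 83.03, for Dars. Each of the 8 was highest in library 5 or library 6, except that Iars was highest in library 2 with DESeq2 size factors and Dars in library 4 with every other scaling. With the scaling used, 1651 of all 11516 genes were highest in library 5 and 2442 in library 6. Of the scaffold genes, Aimp1 stood at 103, 106, 107, 101, 101 and 94.02 CPM, lowest in library 6. Aimp2 stood at 64.2, 68.2, 64.4, 56.03, 55.7 and 56.9 CPM, with its 3 lowest values in libraries 4, 5 and 6. Eef1e1, a further scaffold gene, stood at 21.7, 21.6, 24.5, 33.3, 33.03 and 30.4 CPM and was lowest in libraries 1, 2 and 3.

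The mitochondrial synthetases were scarcer than their cytosolic counterparts. Their median FPKM lay between 0.745, for Ears2, and 20.9, for Lars2, with a median over the 17 genes of 3.33, against 39.4 over the cytosolic ones. In 18 pairs of genes for the same amino acid, the mitochondrial member was below the cytosolic one in each of the 6 libraries. The closest pair was Lars2 and Lars, with a cytosolic to mitochondrial FPKM ratio from 1.01 to 1.36. The widest with the deposited values was Ears2 and Eprs, with a ratio from 68.5 to 99.7. Gars and Kars serve both compartments, and mitochondrial glutamine transfer RNA is charged by another route, so these amino acids have no pair.

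**Figure D2:**
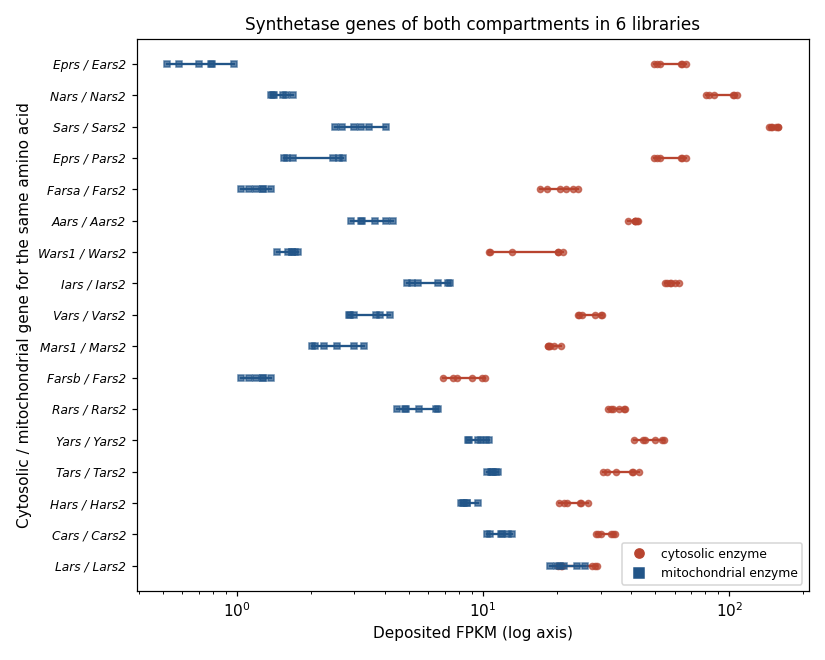
Deposited FPKM, on a log axis, of cytosolic synthetase genes and the mitochondrial gene for the same amino acid. Each point is 1 library, lines join the lowest and highest, and pairs are ordered by their median ratio. Of the 17 pairs drawn, that of Lars and Lars2 is the closest and its points overlap, since Lars exceeds Lars2 within each library but not across all of them, with a median ratio of 1.09.

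The size of these ratios depends on the gene lengths behind the FPKM values. The deposited values imply a length of 15488 bases for Nars2 and 2605 bases for Nars, while the exons of the GENCODE M21 annotation cover 6967 and 4355 bases. With those exon lengths the median ratio of Nars to Nars2 was 16.7 in place of 62.1. That of Mars1 to Mars2 was 41.3 in place of 7.70. That of Eprs to Ears2 was 19.9 in place of 81.01, and Sars to Sars2 became the widest. All 18 median ratios stayed above 1, between 1.99 and 52.1.

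Of the 17 mitochondrial synthetases, 4 ranged 1.5-fold or more, or 23.5%, beside 27.6% of all genes and 17.3% of those averaging 5 CPM or more. The 3 described here are Pars2, Ears2 and Sars2. Pars2, the proline enzyme gene, stood at 5.15, 5.03, 5.39, 7.99, 7.67 and 7.39 CPM, with its 3 highest values in libraries 4, 5 and 6. Ears2, the glutamate enzyme gene, stood at 4.63, 4.13, 5.54, 5.77, 7.10 and 5.76 CPM. Library 5 was highest, and Ears2 no longer ranged 1.5-fold without it. Sars2, the serine enzyme gene, stood at 6.37, 7.11, 5.91, 7.52, 6.98 and 8.94 CPM, highest in library 6. Its 1.51-fold range was under 1.5-fold when library 1, 2, 3 or 6 was left out.

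The other 13 mitochondrial genes ranged between 1.098-fold, for Hars2, and 1.49-fold, for Mars2. Lars2, the most abundant of the class, stood at 18.7, 20.0, 20.4, 25.9, 24.1 and 21.3 FPKM, lowest in library 1 and highest in library 4. Fars2, the phenylalanine enzyme gene, had its 3 highest values in libraries 1, 2 and 3, with 16.8, 17.95, 16.5, 13.4, 12.5 and 14.5 CPM. Mars2, the methionine enzyme gene, stood at 6.82, 6.24, 6.05, 9.04, 7.04 and 8.32 CPM, just under a 1.5-fold range. Iars2, the isoleucine enzyme gene, stood at 32.7, 36.3, 33.99, 40.2, 45.2 and 44.7 CPM, lowest in library 1, and shares 22.7% of its 50-base stretches with opposite-strand transcripts such as Rab3gap2. Vars2, the valine enzyme gene, stood at 13.4, 14.02, 13.4, 15.8, 16.5 and 18.2 CPM, with its 3 highest values in libraries 4, 5 and 6. Aars2 and Rars2, for alanine and arginine, lay between 11.6 (library 2) and 15.8 CPM (library 4) and between 14.4 (library 2) and 19.6 CPM (library 6). For Hars2, Nars2 and Wars2 the intervals of the highest and lowest library overlapped with the scaling used, and did not with plain total counts.

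**Figure D3:**
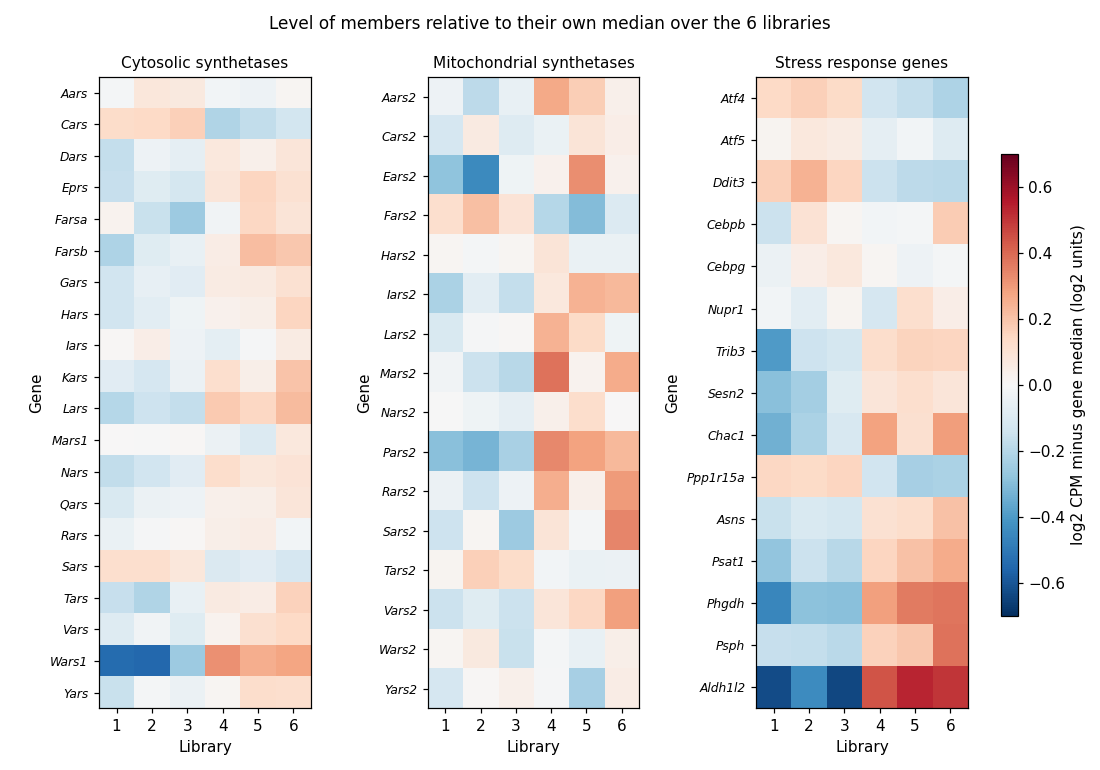
Level of 51 members in the 6 libraries, in log2 CPM units from the median of that gene. Red is above and blue below that median, and rows are grouped into cytosolic synthetases, mitochondrial synthetases and stress response genes. Wars1, Phgdh and Aldh1l2 show strong colours, and Atf4, Ddit3 and Ppp1r15a run opposite to the enzyme genes below them.

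The stress response factors were led by Atf4. It had the highest FPKM of all members, with 393, 401, 395, 354, 346 and 331 FPKM. As CPM it stood at 709, 723, 707, 586, 573 and 554 CPM, a 1.304-fold range. Libraries 1, 2 and 3 were above libraries 4, 5 and 6 for this gene, with an interval of 714 to 732 CPM in library 2 against 547 to 562 CPM in library 6. Ddit3, which encodes the factor CHOP that promotes death under lasting stress, stood at 148, 157, 147, 119, 116 and 116 CPM. Libraries 1, 2 and 3 were again the 3 highest. The ratio of Ddit3 to Atf4 reads was 0.209, 0.217, 0.208, 0.203, 0.203 and 0.209, a 1.07-fold difference between the ends.

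The remaining 4 factor genes ranged at most 1.26-fold. Atf5, a relative of Atf4, lay between 213 (library 6) and 239 CPM (library 2), and Cebpg, a partner of ATF4 in dimers, between 137 (library 1) and 149 CPM (library 3). Cebpb, a further partner, lay between 26.1 (library 1) and 32.9 CPM (library 6). Nupr1, a small stress-induced chromatin protein gene, lay between 9.04 (library 4) and 10.7 CPM (library 5), with overlapping intervals. With plain total counts another library was highest or lowest for Atf5, Cebpg and Nupr1. Of the 6 factor genes, 0 ranged 1.5-fold or more, beside 17.3% of genes averaging 5 CPM or more.

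Regulators of the response did not follow 1 order. Ppp1r15a encodes GADD34, which directs the removal of phosphate from eIF2. Like Atf4 it was highest in libraries 1, 2 and 3, with 124, 123, 125, 102, 95.8 and 96.5 CPM. Trib3, a pseudokinase gene that is a target of ATF4 and CHOP and restrains both, stood at 79.6, 94.7, 95.99, 114, 116 and 116 CPM, lowest in library 1. The ratio of Trib3 to Ddit3 reads was 0.536 in library 1, 0.604 in library 2, 0.653 in library 3 and 0.958 in library 4, and libraries 5 and 6 held about as many reads of either gene.

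Sesn2, whose product restrains mTOR signalling when leucine is scarce, stood at 79.3, 82.2, 91.5, 103, 105 and 103 CPM, lowest in library 1 and highest in library 5. Chac1, which encodes an enzyme that degrades glutathione, stood at 9.14, 9.89, 10.7, 14.03, 12.5 and 14.2 CPM. It was the 1 regulator of 4 that ranged 1.5-fold, or 25%, beside 17.3% of genes averaging 5 CPM or more. Chac1 had an interval of 12.96 to 15.5 CPM in library 6 against 8.11 to 10.3 CPM in library 1. Without library 1 it ranged less than 1.5-fold.

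The enzymes of amino acid and one-carbon metabolism had the widest median range of the classes, 1.48-fold. All 5 had their 3 highest values in libraries 4, 5 and 6, under each scaling tried. In each case the widest gap between neighbours also set these libraries above the others. The share of all genes with that gap was 16.1%, or 15.3% with DESeq2 size factors and 27.8% with plain total counts. Aldh1l2, a mitochondrial folate enzyme gene whose product makes NADPH, stood at 20.7, 23.5, 20.5, 43.4, 46.3 and 45.3 CPM. Its 2.25-fold range was the widest of all members, and 7.19% of all genes ranged as far. Library 5 had an interval of 44.1 to 48.6 CPM and library 3 one of 19.1 to 22.1 CPM. Of its 50-base stretches, 13.6% also lie in opposite-strand transcripts.

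Phgdh, Psat1 and Psph encode the 3 successive enzymes that make serine from a glycolytic intermediate. Phgdh, the first, stood at 126, 142, 141, 211, 223 and 224 CPM, a 1.78-fold range. Psat1, the second, stood at 202, 222, 215, 272, 283 and 293 CPM, and Psph, the last, at 32.9, 32.9, 32.4, 41.2, 42.1 and 47.9 CPM. Psat1 ranged 1.45-fold and Psph 1.48-fold, both just under 1.5-fold, and both passed it with plain total counts. As FPKM the levels of Phgdh and Psat1 were close, with medians of 95.4 and 99.6, and that of Psph was lower, at 9.51. Phgdh shares 47.8% of its 50-base stretches with transcripts of the gene models Gm7901, Gm9347, Gm8341 and Gm7669, so its level is uncertain. Asns, which makes asparagine, stood at 129, 133, 131, 154, 156 and 165 CPM, lowest in library 1 and highest in library 6.

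Atf4 and the enzymes known as its targets lay on opposite sides, Atf4 higher in libraries 1, 2 and 3 and the enzymes in libraries 4, 5 and 6. Within libraries 1, 2 and 3, Atf4, Phgdh, Psat1, Asns and Aldh1l2 were each highest in library 2, and Psph in library 1. Each of these intervals overlapped that of the next highest library among the 3. Within libraries 4, 5 and 6, Atf4 stood at 586, 573 and 554 CPM, lowest in library 6. Phgdh, Psat1, Asns and Psph were highest in library 6, and Aldh1l2 in library 5. The ratio of Phgdh to Atf4 reads was 0.178, 0.196, 0.2003, 0.3599, 0.389 and 0.404, a 2.27-fold difference between the ends. For Psat1 the ratio was 0.285, 0.306, 0.304, 0.464, 0.495 and 0.529, and for Asns 0.181, 0.184, 0.186, 0.263, 0.272 and 0.297. These ratios were chosen after the values were seen.

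**Figure D4:**
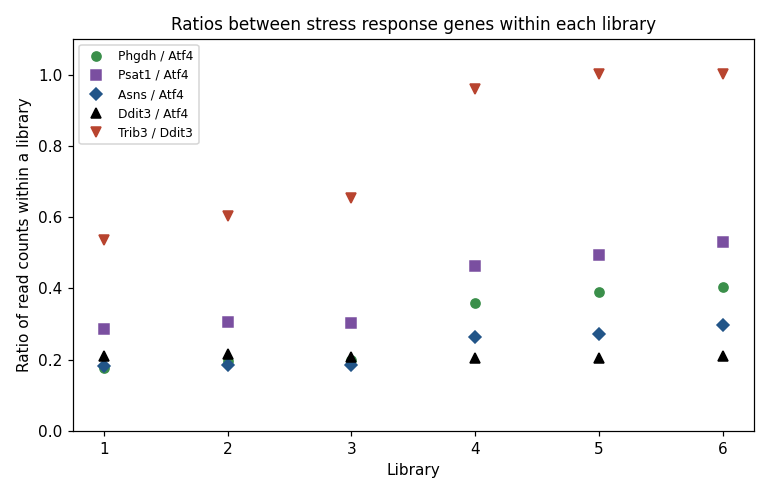
Ratios of read counts between stress response genes within each library, which do not depend on how libraries are scaled. Each symbol is 1 pair of genes. The Ddit3 to Atf4 ratio lies between 0.203 and 0.217, while Phgdh, Psat1 and Asns over Atf4 and Trib3 over Ddit3 are higher in libraries 4, 5 and 6.

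Taken by class, the median member deviated from its own median over the libraries by -0.28, -0.16, -0.19, 0.16, 0.21 and 0.37 log2 units for the 5 enzymes, a range of 0.65. It deviated by -0.12, -0.05, -0.05, 0.04, 0.05 and 0.10 for the cytosolic synthetases and by -0.11, -0.03, -0.06, 0.09, 0.09 and 0.05 for the mitochondrial ones. For the 6 factors it deviated by 0.00, 0.09, 0.07, -0.09, -0.03 and -0.05, and for the 4 regulators by -0.31, -0.18, -0.10, 0.10, 0.12 and 0.12. Over all 11516 genes the same median stayed within 0.01 log2 units. Plain total counts shifted the median gene by up to 0.12 log2 units between libraries relative to the scaling used. The shift was -0.062, -0.061, -0.049, 0.062, 0.062 and 0.047 log2 units. It was down in libraries 1, 2 and 3 and up in libraries 4, 5 and 6, so the choice of scaling moves the difference between these sets. With plain total counts the range of the cytosolic class was 0.34 in place of 0.22. That of the mitochondrial class was 0.30 in place of 0.19, and that of the factors 0.05 in place of 0.18. Without library 1 the cytosolic range was 0.13 and the mitochondrial range 0.12, which it also was without library 2, and without library 4 the factor range was 0.11.

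**Figure D5:**
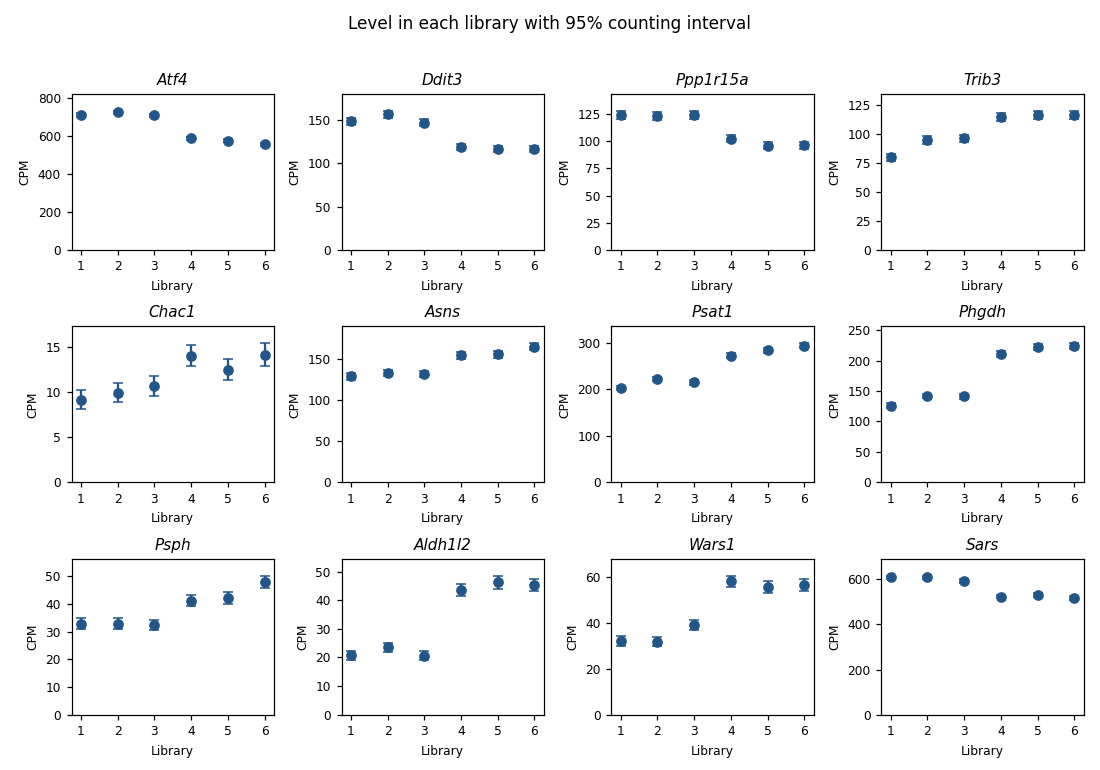
CPM of 12 members in each library, with exact 95% intervals that cover counting error only. Every vertical axis starts at 0. Atf4, Ddit3, Ppp1r15a and Sars are lower in libraries 4, 5 and 6, and the other 8 genes are higher there.

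Promoter windows of the members were searched for the core of the C/EBP-ATF response element, the composite site at which ATF4 is known to bind with C/EBP factors. The motif searched was TGATGNAA on both strands. Windows run from 250 bases before to 50 bases after the annotated start, from RefSeq on GRCm38.p6, and 41 members had one. Of the 41, 9 held the core, or 21.95%, beside 4.51% of all 27025 genes in the RefSeq promoter table. They were Aars, Gars, Iars, Tars, Yars, Nupr1, Trib3, Chac1 and Asns. Of the 13 cytosolic synthetases with a window 5 held it, and of the 14 mitochondrial ones 0. The full ER stress response element, searched on both strands, was in 0 of the 41 windows and in 0.137% of all genes. A match is a description of letters and not a site of binding.

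The windows below show the core where it was found in 3 stress response genes and in Aars, which held 2 copies, and the window of Phgdh, which held none. Capitals mark the core, and each is written 5′ to 3′ along the gene. Asns lies at chr6:7693160-7693459, minus strand, with the core 23 bases before the start. Chac1 lies at chr2:119350992-119351291, plus strand, with the core 193 bases before the start. Trib3 lies at chr2:152344011-152344310, minus strand, with the core beginning 15 bases into the transcript. Aars lies at chr8:111033592-111033891, plus strand, with copies 112 bases before and 10 bases after the start. Phgdh lies at chr3:98339920-98340219, minus strand.
Asns: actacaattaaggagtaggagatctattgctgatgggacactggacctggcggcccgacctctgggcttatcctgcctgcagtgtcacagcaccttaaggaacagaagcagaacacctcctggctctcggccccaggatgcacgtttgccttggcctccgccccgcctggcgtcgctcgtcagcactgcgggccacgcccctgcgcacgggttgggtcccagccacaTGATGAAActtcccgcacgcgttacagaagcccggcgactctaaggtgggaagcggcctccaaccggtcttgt
Chac1: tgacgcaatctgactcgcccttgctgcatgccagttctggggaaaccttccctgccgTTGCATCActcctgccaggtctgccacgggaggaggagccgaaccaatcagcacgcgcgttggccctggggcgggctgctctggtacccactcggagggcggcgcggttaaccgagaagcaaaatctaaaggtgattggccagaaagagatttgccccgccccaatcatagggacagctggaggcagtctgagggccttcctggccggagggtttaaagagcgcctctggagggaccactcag
Trib3: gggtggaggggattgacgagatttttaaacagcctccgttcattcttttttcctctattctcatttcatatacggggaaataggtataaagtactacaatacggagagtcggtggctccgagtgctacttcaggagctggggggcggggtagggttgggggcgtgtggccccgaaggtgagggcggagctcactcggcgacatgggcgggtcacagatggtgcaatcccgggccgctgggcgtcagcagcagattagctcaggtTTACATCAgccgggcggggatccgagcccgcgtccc
Aars: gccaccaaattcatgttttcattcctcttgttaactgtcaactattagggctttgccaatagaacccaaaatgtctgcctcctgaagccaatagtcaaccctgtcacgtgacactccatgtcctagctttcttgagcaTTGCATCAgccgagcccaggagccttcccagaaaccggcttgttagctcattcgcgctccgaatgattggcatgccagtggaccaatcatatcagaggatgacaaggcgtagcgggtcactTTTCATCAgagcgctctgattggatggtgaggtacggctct
Phgdh: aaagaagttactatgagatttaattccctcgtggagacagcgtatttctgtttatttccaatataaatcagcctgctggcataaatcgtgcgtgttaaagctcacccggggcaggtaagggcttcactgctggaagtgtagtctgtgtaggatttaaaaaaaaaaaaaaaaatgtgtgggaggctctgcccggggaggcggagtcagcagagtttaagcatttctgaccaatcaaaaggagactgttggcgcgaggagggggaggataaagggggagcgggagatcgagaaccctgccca

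Ranges of genes with and without the core are given as a description. Of the 9 genes with it, Chac1 alone ranged 1.5-fold or more, beside 17.3% of genes averaging 5 CPM or more. Ranges of the genes with it ran from 1.09-fold, for Aars with 2 copies, to 1.55-fold, for Chac1. Ranges of the members without it in their window ran from 1.08-fold, for Cebpg, to 1.78-fold, for Phgdh. Among the latter, Phgdh, Ears2 and Sars2 alone ranged 1.5-fold or more. Wars1, Aldh1l2 and Pars2 had no window to search.

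Other genes of the pathway were read from lists that hold no members. Of 17 sensors and core genes, 1 ranged 1.5-fold or more, or 5.88%, beside the same 27.6% and 17.3%. That was Eif2ak3, which encodes the kinase PERK that senses misfolded proteins, with 64.7, 65.6, 60.3, 37.7, 37.02 and 35.2 CPM. Eif2ak4, the gene of the kinase GCN2 that senses uncharged transfer RNA, stood at 52.4, 49.8, 45.8, 41.7, 42.6 and 41.8 CPM, highest in library 1. Impact, whose product restrains GCN2, stood at 45.6, 43.8, 45.98, 60.99, 58.1 and 52.4 CPM, highest in library 4. The median deviation of the 17 genes differed by 0.04 log2 units between its highest and lowest library.

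Of 24 further known ATF4 targets, 22 reached 1 CPM, 6 of these ranged 1.5-fold and 1, the cystine transporter gene Slc7a11, 2-fold or more. These shares were 27.3% and 4.55%, beside 27.6% and 10.5% of all genes and 17.3% and 4.69% of those averaging 5 CPM or more. Slc7a11 stood at 0.901, 1.098, 0.889, 5.12, 4.17 and 4.55 CPM, with its 3 highest values in libraries 4, 5 and 6. Cth, which makes cysteine from cystathionine, stood at 25.9, 29.1, 29.3, 46.3, 44.2 and 47.7 CPM. Pck2, the mitochondrial enzyme gene that makes phosphoenolpyruvate, stood at 72.5, 79.6, 76.5, 116, 116 and 117 CPM, and Slc6a9, a glycine transporter gene, at 16.1, 19.6, 19.2, 28.3, 26.1 and 27.7 CPM. These 3 had their highest values in libraries 4, 5 and 6. Stc2, a secreted glycoprotein gene, ran the other way, with 279.8, 288, 269, 184, 201 and 203 CPM. Pycr1, of proline synthesis, lay between 6.11 (library 1) and 11.4 CPM (library 6).

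Among 16 partners and relatives of the synthetases, 3 ranged 1.5-fold or more, or 18.8%, beside 27.6% of all genes and 17.3% of those averaging 5 CPM or more. They were Eef1e1, described above, Aarsd1, an editing protein gene that clears mischarged alanine transfer RNA, with 15.1, 13.9, 15.3, 20.9, 21.4 and 21.6 CPM, and Gatc, a subunit gene of the mitochondrial glutamine pathway, with 7.63, 7.78, 6.597, 10.5, 8.31 and 8.83 CPM. Aarsd1 was highest in library 6 and Gatc in library 4. Tarsl2, a cytosolic relative of the threonine enzyme gene, lay between 11.3 (library 2) and 15.95 CPM (library 5).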

How the data were processed

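RNA was extracted with TRIzol and sequenced as VAHTS Universal V5 libraries, per the labels' protocols. GRCm39, DESeq2, R 3.2.0, HTSeq, HISAT2 and fastp appear in the submitters' processing notes, without order or settings. Neither an annotation nor a strand setting is named there. Per gene, the authors deposited raw read counts and FPKM values. In the deposited tables the ratio of count to FPKM varied between libraries only with the library total, within a relative 1.25e-08, so FPKM is another scaling of the same reads.

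TMM scaling of the counts (R 4.3.3, edgeR 4.0.16) gave factors of 0.958, 0.959, 0.967, 1.044, 1.044 and 1.033 for libraries 1 to 6. Log2 values used a prior count of 2 in Python 3.11.15, and genes needed a mean of at least 1 CPM. The ranges and motif searches were tested on simulated data. Members and gene lists were chosen with earlier results of these data known. The genes named in full were those ranging 1.5-fold or more, Atf4 and the most abundant member of each class, and others were named to describe a class. Classes of genes were described by counts and medians beside all genes, with no test, since the labels give no groups. Values of 1 member are not reported here, although counts and medians include it. Intervals are exact Clopper-Pearson intervals at 95%. A floor of 3 reads stood for 0.0791 to 0.0966 CPM. Reads without molecular identifiers are not independent molecules. No pair of libraries agreed within counting error, with a chi-square per gene from 3.98 to 64.9. Alternatives were DESeq2 1.42.0 size factors, plain totals, FPKM with a pseudocount of 0.1, other filters, a prior count of 0.5, mitochondrially encoded genes left out and each library left out. Where strand was not used in counting, reads of overlapping genes on opposite strands cannot be told apart, as for Ddit3 with Mars1, Hars with Hars2 and Iars2 with Rab3gap2.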

Additional observations from a re-analysis of the deposited data

How the results depend on the processing

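The count of synthetase genes ranging 1.5-fold or more was 5, between 4 and 5 with each library left out in turn, 7 with plain total counts, which added Iars2 and Mars2, and 6 with the deposited FPKM values, which added Mars2. That of stress response genes was 3, and between 2 and 3 with each library left out. With plain total counts 1 synthetase gene ranged 2-fold or more, in place of 0. With plain totals and with the deposited FPKM values 6 stress response genes ranged 1.5-fold or more, the 3 reported and Psat1, Psph and Trib3. The cause was not tested. All 8 members reported at 1.5-fold were also found with DESeq2 size factors, plain totals, FPKM, the other prior count, both other filters and without mitochondrially encoded genes. Over all genes, raising the filter to 5 CPM left 1664 that ranged 1.5-fold and 450 that ranged 2-fold. Fewer genes were tested there, 9605 in place of 11516, and the shares were lower too. They were 17.3% in place of 27.6% at 1.5-fold and 4.69% in place of 10.5% at 2-fold. What lowered the shares was not tested. Without a filter, which lets in genes of a few reads, 11757 ranged 1.5-fold and 6870 ranged 2-fold. Exon lengths of another annotation, chosen after seeing the data, changed the size but not the direction of the cytosolic to mitochondrial ratios. Intervals of the highest and lowest library overlapped for Hars2, Nars2, Wars2, Rars and Nupr1 with the scaling used. They did not overlap for any of the 52 members with plain total counts. They did not overlap for 46 members with DESeq2 size factors and for 45 to 47 with each library left out, in place of 47. No share of all genes is given beside these counts, so they describe the members only. An effect of depth was not tested. No paired analysis was possible because the labels put no library in a group.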

Other observations

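Whether the values of a gene fell into separate clusters was described by the largest gap between neighbouring libraries in the order of its level. For 23 of the 52 members that gap lay between libraries 1, 2 and 3 on one side and libraries 4, 5 and 6 on the other, beside 34.8% of all 11516 genes. In 17 members libraries 4, 5 and 6 were the higher side, beside 16.1% of all genes, and in 6 members libraries 1, 2 and 3 were, beside 18.7%. All 5 metabolic enzyme genes, 7 of the 20 cytosolic synthetases and 3 of the 17 mitochondrial ones were among the 17. The 6 were Cars, Sars, Fars2, Atf4, Ddit3 and Ppp1r15a. For Aldh1l2, with 20.7, 23.5, 20.5, 43.4, 46.3 and 45.3 CPM, the gap took 75.3% of the whole log2 range, and for Atf4, with 709, 723, 707, 586, 573 and 554 CPM, it took 70.2%. With plain total counts 27 members had libraries 4, 5 and 6 as the higher side, beside 27.8% of genes, and 5 had libraries 1, 2 and 3, beside 11.1%. The labels tie neither side to a treatment, and no test between them was made.

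Of the 22 measured ATF4 targets that are no members, the gap lay at the same place in 16, beside 34.8% of all genes. In 12 of these libraries 4, 5 and 6 were higher, beside 16.1% of all genes, and in 4 lower, beside 18.7%. The 4 were Slc38a2, Ddit4, Vldlr and Stc2. Slc38a2, an amino acid transporter gene, stood at 555, 529, 554, 434, 413 and 407 CPM, and Slc1a5, a glutamine transporter gene, at 206, 209.97, 221, 267, 281 and 286 CPM.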
